A study of Mus musculus with 12 samples.

Results

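MiR-221 and miR-222 are a pair of miRNAs made from neighbouring hairpins on the X chromosome, and their levels were followed here in the quadriceps of growing mice. The rows of both arms of both hairpins were taken from the table of counts by name, which gave 4 members (mmu-miR-221-3p, mmu-miR-221-5p, mmu-miR-222-3p and mmu-miR-222-5p) of 1966 mature miRNAs. All 4 passed the filter on low counts, as did 809 miRNAs in total. The prefix mmu, which stands for mouse, is left out in the following. All samples were from wild-type C57BL/6J mice, with 3 libraries for each of 4 postnatal days (P1 and P5, in the first week, P14, before weaning, and P90, in adult life). No treatment or mutation distinguished the groups, and whole muscle was used, so that miRNAs of fibres, myoblasts, vessels and blood were measured together. The time course served the study to learn which miRNAs sensitive to loss of the splicing factor Mbnl1 also take part in muscle development.

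MiRNAs guide silencing complexes to messenger RNAs, mainly through the seed, which is formed by bases 2 to 8 of the mature strand. MiR-221 and miR-222 are known to repress the cyclin-dependent kinase inhibitors encoded by Cdkn1b and Cdkn1c and thereby to favour entry into the cell cycle. In cultured myoblasts they are known to be abundant during growth and to decline upon differentiation, and they are also known from endothelial and vascular smooth muscle cells. None of these targets or cell types was measured separately in the libraries used here.

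The mature sequences are shown because the shared seed is what makes both 3p arms members of the same targeting family. Of the 4 arms, 3 had a sequence in the RefSeq table (GRCm38.p6), and capitals mark the seed.
mmu-miR-221-3p: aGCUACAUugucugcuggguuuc
mmu-miR-222-3p: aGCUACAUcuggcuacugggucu
mmu-miR-221-5p: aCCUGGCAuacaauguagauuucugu
The 3p arms are identical over the first 8 bases, and without gaps they match at 11 of 23 positions in all. The seed of miR-221-5p is different, and no other miRNA of the RefSeq table carries it. The seed of the 3p arms occurs in 1 further miRNA, miR-1928, which had 0 to 2 counts per library, with a count in 2 of 12 libraries, and could not be tested.

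The hairpin of miR-221 lies on the minus strand of chromosome X (GRCm38, 19146294 to 19146388) and that of miR-222 at 19146893 to 19146971 on the same strand, which leaves 504 bases between them. Within these hairpins miR-221-3p is encoded at chrX:19146307-19146329, miR-221-5p at chrX:19146344-19146369 and miR-222-3p at chrX:19146901-19146923. In the GENCODE vM39 annotation both are placed in exonic sequence of the lncRNA Gm26652, in the same orientation. No other hairpin was found within 50 kb on either strand, so that no antisense miRNA of the table overlaps the 4 arms.

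Library totals ranged from 20363495 to 53126984 counts, and the 3p arms held 1288 to 3359 counts in every library. No 2 libraries of an age agreed within sampling noise, as one library deposited a second time would (chi-square of 155 to 1060 per degree of freedom). Levels are given as CPM, that is, counts brought to a common library size, after scaling with TMM factors (trimmed mean of M values), which set aside the most extreme miRNAs when libraries are compared. This matters for the oldest group, whose TMM factors were 0.247 to 0.384, compared with 1.24 to 1.72 in the younger libraries, and in which miR-1a-3p, a dominant muscle miRNA, had a mean of 1740000 normalized CPM. Muscle identity was checked on miR-1a-3p, miR-133a-3p and miR-206-3p, whose summed level was between 139000 and 274000 normalized CPM in the younger libraries and at least 1450000 in those of P90. Most of this sum was miR-1a-3p, with means of 161000, 235000 and 135000 CPM at P1, P5 and P14, so that it mainly describes this marker. MiR-133a-3p was also higher at P90 than at P1 (means of 60600 and 5440 CPM), whereas miR-206-3p was lower (1290 and 17600 CPM).

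On the TMM scale miR-221-3p, miR-222-3p and miR-221-5p were 2.22- to 2.70-fold higher in adult than in newborn muscle, whereas they were lower as shares of all counts, and miR-222-5p was scarce at every age. Among the 4 arms, miR-221-3p had the highest mean at 3 of the ages. Its normalized level was 42.7, 77.5 and 39.1 CPM in the P1 libraries (replicates 1 to 3) and 45.3, 48.9 and 56.4 CPM in those of P5. The P14 libraries held 65.5, 60.4 and 68.0 CPM and the P90 libraries 154.9, 85.4 and 122 CPM. All P90 libraries were above those of every other age, and the P1 group was spread by replicate 2, which was higher than any P5 or P14 library. How often libraries of different ages were separated in this way among all miRNAs tested was not counted, here or below. The group means were 53.1 ± 21.2, 50.2 ± 5.64, 64.6 ± 3.91 and 121 ± 34.8 CPM from the youngest to the oldest age (SD, n = 3 each). MiR-221-3p differed across the 4 ages (edgeR quasi-likelihood F-test, Padj = 0.000633, adjusted over the 809 miRNAs tested). In the same test 72.4% of all miRNAs tested differed, so that a difference across the ages was the common outcome.

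MiR-222-3p followed a similar course. Its level was 41.3, 58.3 and 38.0 CPM in newborns, 39.0, 44.7 and 41.6 CPM by P5, 60.9, 67.7 and 74.4 CPM by P14, and 119, 78.5 and 107 CPM in adults. The P14 libraries lay above all P1 and P5 libraries and the P90 libraries above all others. The means were 45.9 ± 10.9, 41.8 ± 2.86, 67.6 ± 6.77 and 102 ± 20.9 CPM in order of age (SD, n = 3 each), and the ages differed (edgeR Padj = 5.79e-05).

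The 5p arms are the strands of the hairpins that are usually discarded, and they were scarce here. MiR-221-5p, with 80 to 223 counts per library, was measured at 2.12, 3.46 and 3.10 CPM in newborns, 2.15, 4.63 and 3.03 CPM by P5, 5.87, 5.50 and 5.80 CPM by P14, and 8.98, 7.16 and 7.33 CPM in adults. Libraries of P1 and P5 overlapped, while P14 lay above both and P90 above P14. The ages differed for this arm too (edgeR Padj = 0.000671). MiR-222-5p had 11 to 83 counts per library and stayed near 1 CPM, with means of 1.08 ± 0.734, 0.936 ± 0.498, 1.12 ± 0.296 and 1.24 ± 0.281 in order of age. Its highest value, 1.92 CPM, was in P1 replicate 2 and its lowest, 0.548 CPM, in P1 replicate 3, so that the P1 group alone covered the range of all ages. No difference across the ages was detected at this depth (edgeR Padj = 0.904).

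**Figure D1:**
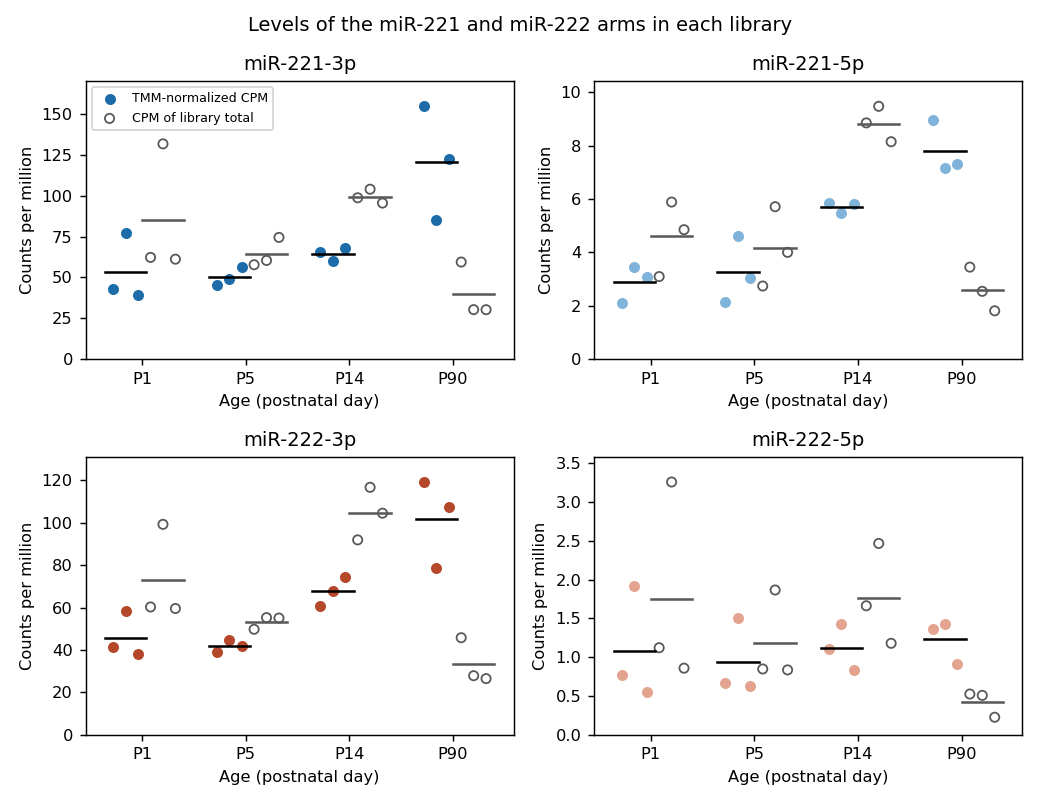
Levels (CPM) of the 4 arms in each library by age (one panel per arm, y axes from 0), as TMM-normalized CPM (filled points) and as CPM of the library total (open points), with lines at group means. From P14 to P90 the filled points of miR-221-3p rise from a mean of 64.6 to 121, while the open points fall from 99.5 to 40.0.

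The ages were then compared in pairs. Between P1 and P5 none of the 4 arms was called, compared with 4.45% of all miRNAs tested. The 22 higher and 14 lower calls behind that share changed when any P1 or P5 library was left out, which leaves 2 libraries in that group. They became 12 and 12, 7 and 3, and 10 and 17 without P1 replicates 1, 2 and 3. Without P5 replicates 1, 2 and 3 they became 17 and 11, 8 and 3, and 6 and 2. The log2 fold changes (log2FC) were -0.08 for miR-221-3p (95% interval -0.61 to 0.45), 0.18 for miR-221-5p (-0.42 to 0.77), -0.13 for miR-222-3p (-0.55 to 0.28) and -0.20 for miR-222-5p (-1.31 to 0.90), with edgeR Padj between 0.817 and 0.946. These intervals leave room for a change of either sign. When P1 replicate 2 was left out, the log2FC of miR-221-3p became 0.28, that of miR-222-3p 0.06 and that of miR-222-5p 0.49, again with no call.

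In the second postnatal week miR-222-3p and miR-221-5p rose. From P5 to P14 the log2FC was 0.69 for miR-222-3p (SE 0.19, edgeR Padj = 0.00866) and 0.81 for miR-221-5p (SE 0.28, Padj = 0.0286), whereas 18% of all miRNAs tested were called higher and 26.3% lower. MiR-221-3p was higher at P14 in all libraries, but its log2FC of 0.36 (SE 0.25, Padj = 0.268) did not pass the threshold. MiR-222-5p had a log2FC of 0.27 (SE 0.52, Padj = 0.718). The miR-221-5p call rested on few counts and was lost without P5 replicate 1 (log2FC 0.55), P5 replicate 3 (0.72) or any P14 replicate (0.76, 0.80 and 0.76). That of miR-222-3p was kept whichever library was left out.

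Compared with newborn muscle, the same arms were called at P14. From P1 to P14 miR-221-5p had a log2FC of 0.98 (SE 0.28, edgeR Padj = 0.00863) and miR-222-3p of 0.56 (SE 0.19, Padj = 0.026), in a comparison where 20.3% of the miRNAs tested were called higher and 28.8% lower. The call of miR-222-3p failed in 5 of 12 fits with a library left out, with a log2FC of 0.43 without replicate 1 and 0.45 without replicate 3 of P1, 0.52 without replicate 3 of P5, and 0.52 and 0.43 without replicates 2 and 3 of P14. That of miR-221-5p failed when the first P1 library was omitted (0.74). For miR-221-3p the log2FC was 0.28 (Padj = 0.385), which became 0.60 (Padj = 0.0412, a call) without P1 replicate 2, the library with the highest level of this miRNA before P90.

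From P14 to P90 both 3p arms rose on the TMM scale, whereas they were lower at P90 with library totals (log2FC of -1.31 and -1.65). The log2FC was 0.90 for miR-221-3p (SE 0.25, edgeR Padj = 0.00611) and 0.59 for miR-222-3p (SE 0.19, Padj = 0.0164), and the groups did not overlap for either. In this step 22.4% of the miRNAs tested were called higher and 36.7% lower. The miR-222-3p call was lost without P14 replicate 1 (0.55) or P90 replicate 1 (0.46), the P90 library in which both 3p arms were highest. MiR-221-5p had a log2FC of 0.45 (SE 0.28, Padj = 0.179). For this arm the sign changed when the GC trend was removed. Its mature sequence has 38.5% GC, compared with 47.8% for miR-221-3p and 52.2% for miR-222-3p, and in the P14 libraries levels, relative to the average over all libraries, were higher the higher the GC content (slopes of 0.377 to 0.561 log2 units per 10 GC points over 309 miRNAs) while the slopes were negative in the P90 libraries (-0.591 to -0.38). Without the trend, the log2FC of miR-221-5p for P90 versus P14 was -0.62 (Padj = 0.0743).

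Over the whole time course, from P1 to P90, the 3 more abundant arms rose to a similar extent on the TMM scale and were lower when libraries were scaled by their totals, as detailed further on. The log2FC was 1.19 for miR-221-3p (SE 0.25, edgeR Padj = 0.000647), 1.15 for miR-222-3p (SE 0.20, Padj = 8.43e-05) and 1.43 for miR-221-5p (SE 0.29, Padj = 0.000351), which correspond to 2.28-, 2.22- and 2.70-fold higher levels at P90. With the GC trend removed the log2FC were 1.07, 1.26 and 0.82, so that miR-221-5p had the lowest instead of the highest of the 3, and its log2FC for P90 versus P5, described next, was 0.68 in place of 1.26, all still called. For all 3 arms the P90 libraries lay above all P1 libraries. In this comparison 25.2% of the miRNAs tested were called higher and 41.2% lower. Their log2FC were at the percentiles 79.5, 79.0 and 82.3 of all miRNAs tested. MiR-222-5p had a log2FC of 0.21, with a 95% interval of -0.93 to 1.35 (Padj = 0.741). P90 versus P5 gave 1.27, 1.28 and 1.26 for miR-221-3p, miR-222-3p and miR-221-5p (edgeR Padj = 0.000406, 3.15e-05 and 0.00108), with 24.8% of all miRNAs called higher and 38.3% lower, and 0.41 for miR-222-5p (Padj = 0.521). These 3 arms were called for P90 versus P1 and versus P5 with every library left out in turn.

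**Figure D2:**
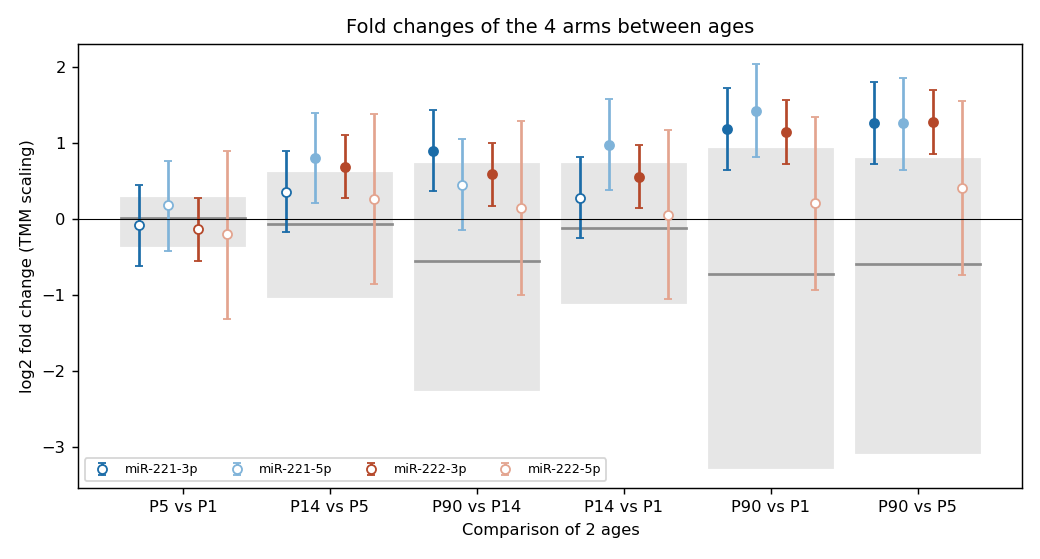
Log2 fold changes of the 4 arms (points with 95% intervals, filled where edgeR Padj was under 0.05) for 6 comparisons of ages, on the TMM scale. Grey boxes span the interquartile range of all 809 miRNAs tested and grey lines their median, which was -0.72 for P90 versus P1, where miR-221-3p was at 1.19 (-1.09 with library totals).

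The order of the ages on the TMM scale was therefore P5, P1, P14 and P90 for both 3p arms. Between the neighbours P5 and P1 no arm was called, between P14 and P90 both 3p arms were. Between P1 and P14 miR-222-3p was called and miR-221-3p was not. That call was lost in 5 of 12 fits with a library left out, so that no difference between the arms is read from it. For miR-221-5p the order was P1, P5, P14 and P90, and of the neighbours only P5 and P14 were called different. MiR-222-5p was not called between any neighbours.

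The direction at P90 was relative to how libraries were scaled. As a share of all counts, miR-221-3p fell from 85.1 ± 40.5 CPM at P1 and 99.5 ± 4.29 at P14 to 40.0 ± 16.9 at P90, and miR-222-3p from 73.0 ± 22.7 and 104 ± 12.4 to 33.4 ± 10.8 (SD, n = 3). With library totals as the only scaling, the log2FC for P90 versus P1 was -1.09 for miR-221-3p, -1.13 for miR-222-3p, -0.83 for miR-221-5p and -2.05 for miR-222-5p, and all 4 passed as lower (edgeR Padj between 0.000631 and 0.03). When miR-1a-3p and the antisense miR-1b-5p were left out of the totals, the values were 0.72, 0.68, 0.97 and -0.24, and the first 3 passed as higher. RLE factors gave 1.52, 1.48, 1.77 and 0.56, and upper-quartile scaling 3.07, 3.03, 3.33 and 2.10.

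A change of scaling shifts all miRNAs of a library alike, so that the distance of an arm from the median of all miRNAs is nearly fixed by construction. The median log2FC of the miRNAs tested was -0.72 with TMM, -0.37 with RLE, 1.2 with upper-quartile factors and -2.97 with library totals. Of all miRNAs tested, 204 were called higher and 333 lower at P90 than at P1 with TMM, 391 higher and 192 lower with the upper quartile, and 36 higher and 647 lower with library totals. With TMM, miR-221-3p lay 1.90 above this median, miR-222-3p 1.86, miR-221-5p 2.15 and miR-222-5p 0.92. Ranks by count within a library, which need no scaling, also shifted. By median rank among the 809 miRNAs, miR-221-3p moved from 249 in newborns to 237, 216 and 132 with age, and miR-222-3p from 251 to 250, 210 and 137. For miR-221-5p the median ranks were 451, 448, 380 and 315. The ranks of these 3 arms at P90 did not overlap those of any younger age. A rank depends on the other miRNAs too, more of which were called lower than higher at P90 with TMM. It is thus not independent of the distance from the median. MiR-222-5p was ranked 492 to 618 at P1 and 455 to 522 at P90, which overlapped.

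**Figure D3:**
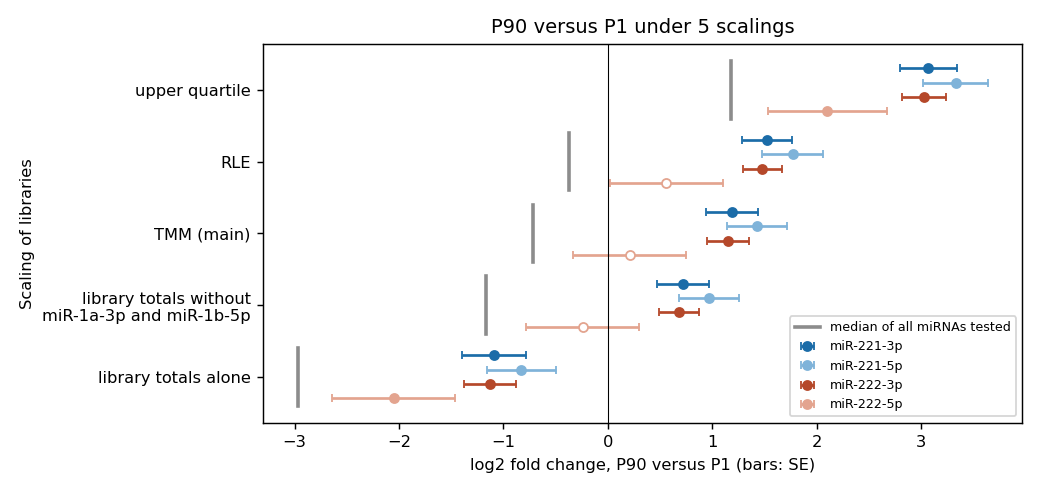
Log2 fold changes of the 4 arms for P90 versus P1 (points, bars are SE, filled where edgeR Padj was under 0.05) under 5 scalings of the libraries, with the median of all miRNAs tested as a grey line. MiR-221-3p moves from -1.09 with library totals to 3.07 with upper-quartile factors, and the grey line shifts with it, since a scaling acts on all miRNAs alike.

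Because both hairpins lie in the same lncRNA, the ratio of the 3p arms was examined within each library. MiR-221-3p had 1.03, 1.33 and 1.03 counts per count of miR-222-3p in newborns and 1.16, 1.09 and 1.35 by P5. The ratios were 1.08, 0.892 and 0.915 by P14 and 1.30, 1.09 and 1.14 in adults. The arms were thus nearly equal throughout, and only 2 of the P14 libraries held more miR-222-3p than miR-221-3p. The P14 libraries lay below those of P5 and P90 in this ratio, but a difference between the ages was not detected (exact permutation test over all 15400 ways to assign the libraries to ages, any direction, p = 0.154, Padj = 0.349 over 3 ratios). The levels of the 3p arms were correlated over the 12 libraries (Pearson's r = 0.948 on the log2 scale, a description over libraries that share ages and scaling), and among all other miRNAs tested none was closer to miR-221-3p than miR-222-3p. The reverse did not hold, as miR-1249-3p had a higher r with miR-222-3p (0.963). MiR-221-5p had an r of 0.818 with its own 3p arm, for which it ranked only 58 by r among the miRNAs tested. Its r with miR-222-3p was 0.903, while r of miR-222-5p with the other arms was 0.456 to 0.50.

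The 3p arm prevailed in both hairpins. MiR-221-3p exceeded miR-221-5p by 12.6- to 22.4-fold in newborns, 10.6- to 21.1-fold by P5, 11.0- to 11.7-fold by P14 and 11.9- to 17.2-fold in adults. The P14 libraries were close to each other and low, but they lay within the range of P5, and no difference between ages was detected (exact permutation test, p = 0.279, Padj = 0.349). MiR-222-3p exceeded miR-222-5p by 30.5- to 69.3-fold in newborns, 29.6- to 65.8-fold by P5, 47.3- to 88.7-fold by P14 and 54.8- to 117-fold in adults (exact permutation test, p = 0.349, Padj = 0.349). Hence the share of a hairpin's counts on the 5p arm was between 4.27% (95% Wilson interval 3.65 to 5.00, P1 replicate 2) and 8.64% (7.54 to 9.88, P5 replicate 2) for miR-221, and between 0.847% (0.473 to 1.51, P90 replicate 3) and 3.27% (2.56 to 4.16, P5 replicate 2) for miR-222. The intervals cover counting error only.

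**Figure D4:**
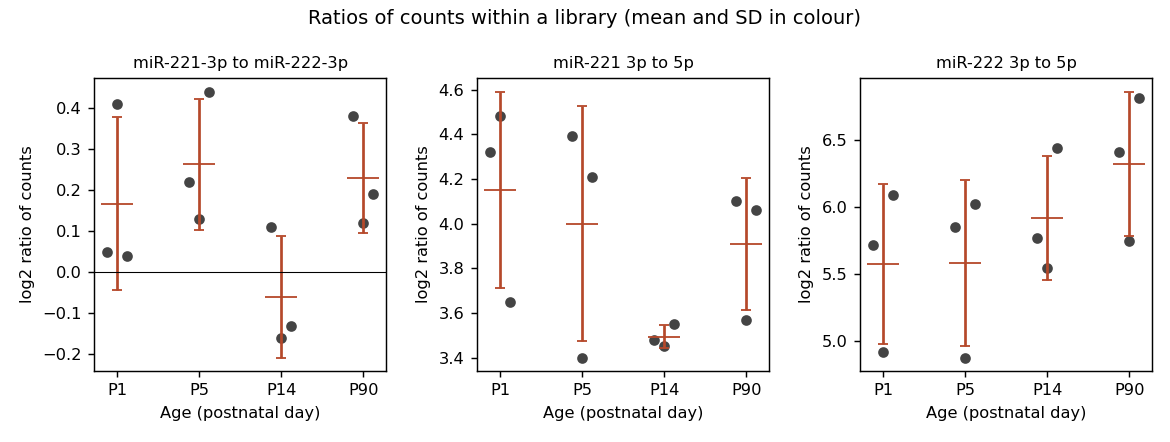
Log2 ratios of counts within each library (points) by age, with mean and SD in colour, for miR-221-3p to miR-222-3p and for the 3p to the 5p arm of each hairpin. The ratio of the 3p arms stays between -0.16 and 0.44, where the P14 libraries lie below those of P5 and P90 and overlap those of P1.

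Since both 3p arms carry the same seed, their counts were added to describe the pool that shares it. The summed level was 98.9 ± 32.2, 92 ± 6.99, 132 ± 8.87 and 223 ± 55.5 normalized CPM in order of age (SD, n = 3 each). As a share of all counts it was 158 ± 63.2, 118 ± 11.14, 204 ± 15.4 and 73.4 ± 27.6 CPM, with the highest mean at P14 and the lowest at P90.

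The pair was next set beside other miRNAs tied to the cell cycle, namely both arms of the miR-17, miR-106a and miR-106b clusters, which are known to be induced by growth signals and to favour proliferation. Of 28 such miRNAs in the table, 20 could be tested. From P1 to P90 none of them was called higher and 16 were called lower, with a median log2FC of -1.54, compared with 25.2% called higher, 41.2% called lower and a median of -0.72 over all miRNAs tested. Of the most abundant members, miR-92a-3p had a log2FC of -0.50 (SE 0.12, edgeR Padj = 0.00153), miR-25-3p of -0.72 (SE 0.13, Padj = 0.000153) and miR-93-5p of 0.11 (SE 0.13, Padj = 0.482). The direction of the list depended on the scaling, as 10 were called higher and 1 lower with upper-quartile factors and all 20 were called lower with library totals, as were 647 of the 809 miRNAs tested. Counts within a library gave the relation without scaling. For each 1000 counts of miR-92a-3p there were 42.7 to 67.2 counts of the 3p arms together at P1 and 124 to 193 at P90, and for each 1000 of miR-25-3p 124 to 176 and 416 to 604. Relative to miR-93-5p the numbers were 156 to 291 and 304 to 533. Thus the counts of the 3p arms were higher relative to all 3 of these miRNAs at P90 than at P1, by 3.21-, 3.74- and 2.11-fold on average, and for each of them every P90 library lay above every P1 library.

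In the list of miRNAs tied to muscle differentiation, 3 of 7 were called higher at P90 than at P1, 3 were called lower and the median log2FC was 0.28, beside 25.2% called higher and 41.2% lower over all miRNAs tested. MiR-1a-3p and miR-133a-3p, which promote and modulate differentiation of muscle cells, had log2FC of 3.44 and 3.48 (SE 0.24 and 0.20, edgeR Padj = 2.07e-09 and 1.95e-10), and miR-206-3p, the muscle miRNA of developing fibres and satellite cells, of -3.78 (SE 0.16, Padj = 5.06e-12). These 3 directions were kept under the other scalings run. For each 1000 counts of miR-133a-3p the 3p arms had 13.9 to 27.0 counts at P1 and 3.37 to 3.91 at P90, which is 4.80-fold fewer, and relative to miR-1a-3p they were 4.69-fold fewer. Relative to miR-206-3p they had 4.07 to 7.93 counts per 1000 in newborns and 126 to 261 in adults. On the TMM scale the log2FC of both 3p arms lay above that of miR-206-3p and below those of miR-1a-3p and miR-133a-3p. This span also holds the interquartile range of all miRNAs tested (-3.27 to 0.92), so that such a position is common and not particular to the pair. Of the other list members, miR-486a-5p had a log2FC of 2.66, miR-133b-3p of 0.28, miR-208b-3p of -3.85 and miR-499-5p of -3.99.

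As miR-221 and miR-222 are also known from vessels and blood, markers of these cells were followed in the same libraries. In bulk muscle, a change in the number of cells of a type and a change in the RNA of each cell cannot be told apart. All 6 endothelial and smooth muscle markers were detected and none was at 0. All 6 were called higher at P90 than at P1, with a median log2FC of 1.61. Over all miRNAs tested 25.2% were called higher and 41.2% lower, with a median of -0.72. Their summed level was 20700 to 24300 normalized CPM in newborns, 26400 to 32300 by P5, 28200 to 34400 by P14 and 67100 to 86800 in adults. Most of this sum was miR-143-3p, with means of 17700 CPM at P1 and 64900 CPM at P90, so that it mainly describes this marker. Like the 3p arms, the sum was highest at P90, but the courses differed in detail. From P1 to P5 the marker sum was higher with no overlap while the summed 3p arms had means of 98.9 and 92 CPM. In this step only 1 of the 6 markers was called, and miR-143-3p was not (edgeR Padj = 0.176). Within P90 the lowest marker sum (67100) was in replicate 1, the library with the highest 3p arms. With library totals all 6 were called lower (median -0.67), as were the 3p arms and 647 of the 809 miRNAs tested. MiR-126a-3p, the endothelial miRNA of the Egfl7 gene, had a log2FC of 1.65 (SE 0.16, edgeR Padj = 1.29e-07), miR-143-3p, known from smooth muscle, of 1.87 (SE 0.14, Padj = 5.69e-09) and miR-145a-5p, from the same transcript, of 1.82 (SE 0.13, Padj = 3.54e-09). The 3p arms had 21.0 to 44.3 counts per 1000 of miR-126a-3p in newborns, 14.9 to 18.6 by P5, 15.4 to 17.8 by P14 and 14.0 to 30.4 in adults, and the P1 and P90 libraries overlapped in this ratio, as they did relative to miR-143-3p (4.34 to 7.81 and 2.44 to 4.92). Relative to miR-145a-5p the arms had 216 to 359 counts per 1000 at P1 and 141 to 205 at P90, with no overlap. The part of vessels in the miR-221 and miR-222 levels was not tested.

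Of the 7 blood cell markers, all were detected with none at 0, and 2 were called higher and 2 lower at P90 than at P1 (median log2FC -0.57, which became 1.32 with upper-quartile factors), beside 25.2% and 41.2% over all miRNAs tested. Their summed level was 557 to 745 CPM in newborns, 492 to 558 by P5, 372 to 452 by P14 and 655 to 827 in adults. Within P1 the highest sum was in replicate 2 (745, compared with 557 and 602), the library in which all 4 arms of miR-221 and miR-222 were also highest at this age. Within P90, by contrast, the highest sum (827) was in replicate 2, in which both 3p arms were lowest. The red cell miRNA miR-451a had a log2FC of 0.51 (SE 0.21, edgeR Padj = 0.0461), the myeloid miR-223-3p of -0.80 (SE 0.29, Padj = 0.022) and the lymphocyte miR-150-5p of 3.77 (SE 0.19, Padj = 4.34e-11). Of these directions, those of miR-451a and miR-223-3p changed with the scaling. Relative to miR-451a the 3p arms of P1 and P90 overlapped, at 336 to 614 and 364 to 1140 counts per 1000. Relative to miR-223-3p they had 405 to 548 counts per 1000 at P1 and 1580 to 2090 at P90, and relative to miR-150-5p 6630 to 14400 and 1110 to 1790, with no overlap in either case and in opposite directions. The part of blood was not tested.

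**Figure D5:**
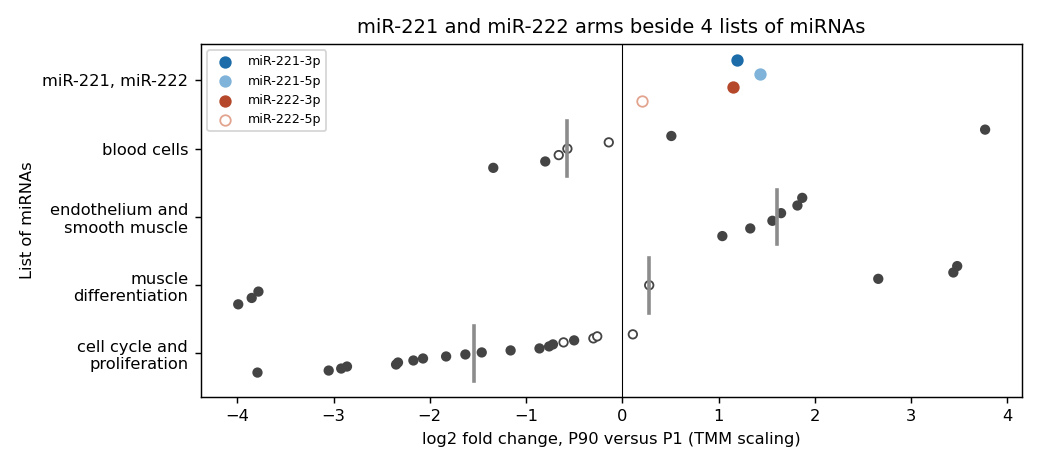
Log2 fold changes for P90 versus P1 on the TMM scale of the 4 arms and of 4 lists of miRNAs (each point is a miRNA, filled where edgeR Padj was under 0.05, grey lines are list medians). MiR-221-3p, miR-222-3p and miR-221-5p, at 1.19, 1.15 and 1.43, lie among the endothelial and smooth muscle markers (median 1.61) and above all 20 cell cycle miRNAs (median -1.54), while with library totals all of these values are lower than 0.

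Finally, the miRNAs whose profiles over the 12 libraries were most like those of the 3p arms were listed, from 348 candidates with a mean of at least 10 normalized CPM. The libraries share ages and scaling, so that the values of r are descriptions. For miR-221-3p these were miR-155-5p (r = 0.894), miR-26a-5p (0.892), miR-1249-3p (0.888), miR-664-3p (0.887) and miR-1843a-3p (0.876). For miR-222-3p they were miR-1249-3p (0.963), miR-361-3p (0.933), miR-30c-5p (0.925), miR-181a-2-3p (0.925) and miR-155-5p (0.924). Among those listed as nearest, miR-1249-3p was closest in the size of its change as well, with a log2FC of 1.44 for P90 versus P1. Its means were lower, at 9.69, 7.96, 14.3 and 26.4 CPM from P1 to P90. Its r with miR-222-3p was 0.946 when libraries were scaled by their totals. By contrast, r of miR-155-5p with miR-221-3p was then 0.124, and miR-155-5p rose more, from 9.80 to 82.0 CPM. The lowest r with miR-221-3p were those of miR-300-5p (-0.88) and of miR-136-3p and miR-3071-5p (both -0.876). MiR-136-3p and miR-3071-5p had the same means and the same log2FC under every scaling, so that they are read as the same profile. With miR-222-3p the lowest r were those of miR-362-3p and miR-18a-5p (both -0.935) and miR-450a-5p (-0.934). The sign of these lowest r depended on the scaling. With library totals they were all positive, at 0.633 to 0.663 with miR-221-3p and 0.549 to 0.62 with miR-222-3p. All of the miRNAs with the lowest r fell from P1 to P90, for example miR-18a-5p of the miR-17 cluster from 111 to 8.03 CPM. With Spearman's rho in place of r, 2 of the 5 miRNAs nearest to miR-221-3p and 1 of the 5 nearest to miR-222-3p were found again. When the search was repeated on library totals, none of the 5 miRNAs nearest to either arm was among the 5 nearest again, although r was still 0.816 for miR-26a-5p with miR-221-3p and 0.854 for miR-361-3p with miR-222-3p.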

How the data were processed

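The table of raw counts deposited by the authors was used. Per the labels and the study's methods, total RNA from quadriceps was made into small RNA libraries, reads were size-selected with cutadapt (version 1.18), aligned to GRCm38 with Bowtie2 (2.4.1) and counted per mature miRNA of miRBase with featureCounts (2.0.1). Strand and overlap options are not given in the sources used here. The title of each sample gave its age and replicate number. The members and lists were chosen with earlier results of these data known.

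The filterByExpr function left 809 of 1966 miRNAs. After TMM scaling, the quasi-likelihood model of edgeR 4.0.16 (R 4.3.3) was fitted to all 12 libraries with age as the factor. P values were adjusted over all miRNAs tested (Benjamini-Hochberg), and an adjusted P (Padj) under 0.05 was a call. SE and 95% intervals were derived from the F statistic. Per the study's methods, 3 mice were taken at each age, and the labels do not tie a library to a mouse. The P values measure the spread between these libraries. Ratios were formed after adding 0.5 to each count and tested over all 15400 partitions of the libraries into 4 groups of 3. The edgeR script was tested on simulated data.

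Named miRNAs comprised the members, miRNAs with the same seed or a hairpin within 50 kb, for each 3p arm the 5 with the highest and the 3 with the lowest Pearson's r (mean of at least 10 CPM), and the 3 most abundant of each list. MiR-18a-5p is in the cell cycle list. Sequences and positions are from RefSeq (GRCm38.p6), with 1675 of 1966 names matched, and the host gene from GENCODE vM39, whose coordinates were not used. Mature GC content was available for 85% of the miRNAs tested. The count ratios to list members were added after the data were seen. The alternatives comprised other scalings, no filter, DESeq2 1.42.0, the 2 ages only, a replicate block, removal of the GC trend, other pseudocounts and leaving out each library.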

Additional observations from a re-analysis of the deposited data

How the results depend on the processing

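Of the settings other than leaving out a library, library totals alone changed the most. With them, the log2FC of miR-221-3p, miR-221-5p, miR-222-3p and miR-222-5p turned to -1.31, -1.76, -1.65 and -2.07 for P90 versus P14, to -1.09, -0.83, -1.13 and -2.05 for P90 versus P1 and to -0.68, -0.68, -0.68 and -1.49 for P90 versus P5. In addition miR-221-5p turned to -0.15 for P5 versus P1, miR-222-3p was no longer called for P14 versus P1 (0.52), and miR-222-5p differed across the ages (Padj = 0.0185). By construction these totals let miR-1a-3p lower the values of other miRNAs at P90. With totals that leave out miR-1a-3p and miR-1b-5p, the miR-222-3p calls were lost for P90 versus P14 (0.30) and P14 versus P1 (0.38), and miR-222-5p turned to -0.12, -0.11 and -0.24 for P90 versus P14, P14 versus P1 and P90 versus P1. Upper-quartile factors added calls for miR-221-3p at P14 versus P5 (0.65), miR-221-5p at P90 versus P14 (2.03), miR-222-5p at P90 versus P14, P1 and P5 (1.73, 2.10 and 2.26) and miR-222-5p across the ages (Padj = 0.00392). MiR-221-5p was also called for P90 versus P14 with RLE (0.82), DESeq2 (0.81) and the 2 ages only (0.75), while it turned to -0.62 with the GC trend removed. The 2 ages only added miR-221-3p at P14 versus P5 (0.45). Without the filter, the calls of miR-221-5p for P14 versus P5 (0.70) and miR-222-3p for P14 versus P1 (0.43) were lost, and miR-222-5p turned to -0.07 for P14 versus P1. The cause was not tested for these settings.

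With a library left out, the log2FC ranged from -0.27 to 0.28, -0.16 to 0.40, -0.27 to 0.06 and -0.74 to 0.49 for P5 versus P1 (miR-221-3p, miR-221-5p, miR-222-3p and miR-222-5p), from 0.09 to 0.60, 0.74 to 1.07, 0.43 to 0.71 and -0.24 to 0.71 for P14 versus P1, and from -0.03 to 0.89 for miR-222-5p at P90 versus P1. They ranged from 0.55 to 1.15 for miR-221-5p at P14 versus P5, and from 0.35 to 0.68 for miR-221-5p and 0.46 to 0.81 for miR-222-3p at P90 versus P14, where miR-221-5p was called without P5 replicate 2 (0.68). The difference in the log2 ratio of the 3p arms between P90 and P1 was 0.06 and ranged from -0.01 to 0.19.

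Replicate numbers did not pair the libraries, as r of the deviations of same-numbered libraries was -0.173 to 0.114 over 18 pairs. Of 12 libraries, 2 correlated best with their own number. With the block, the log2FC for P90 versus P1 were 1.20, 1.47, 1.16 and 0.35, and no call of the 4 arms changed. With few counts, miR-222-5p could be followed only within wide intervals.

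Over all miRNAs tested, the calls for P5 versus P1 numbered 22 higher and 14 lower, and 29 and 33 without the filter, 39 and 48 with the 2 ages only, 44 and 29 with DESeq2, 9 and 6 with the replicate block, 3 and 37 with library totals and 10 and 25 with totals without miR-1a-3p and miR-1b-5p. With a library left out they ranged from 6 and 2 (without P5 replicate 3) to 31 and 20 (without P90 replicate 2), and they were 12 and 12 without P1 replicate 1. The split into higher and lower moved with the scaling. Upper-quartile factors gave 207 and 165 for P14 versus P5 (146 and 213 with TMM), 382 and 159 for P90 versus P14 (181 and 297), 229 and 181 for P14 versus P1 (164 and 233) and 407 and 183 for P90 versus P5 (201 and 310). Library totals gave 183 and 160 for P14 versus P5. For P90 they gave 18 and 628 against P14, and 34 and 606 against P5.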
